A study of Mus musculus with 4 samples.

Results

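Imprinted genes are expressed mainly or only from the copy inherited from 1 parent, and many of them set the growth of the embryo. The 10 described here, H19, Igf2, Dlk1, Meg3, Peg3, Mest, Cdkn1c, Grb10, Igf2r and Plagl1, were chosen by name from 32285 genes measured, and all 10 were in the count matrices of every library. The study sequenced single cells of the aorta-gonad-mesonephros region (AGM), the tissue around the dorsal aorta where haematopoietic stem cells arise, of C57BL/6J mouse embryos at E11.5. Sorted CD31+ cells were divided by how strongly they took up TMRM, a dye drawn into mitochondria by membrane potential, and the low gate (MMPlow) and the high gate (MMPhigh) gave 2 libraries each. No allele was altered and no agent other than the dye is named in the labels, so the 2 groups share strain, stage and CD31 sort and differ by gate. The study asked what distinguishes the transcriptomes of cells with low and high mitochondrial activity.

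The members fall on both sides of the parental balance of growth. Igf2, an insulin-like growth factor, is expressed from the paternal copy together with Mest, an alpha/beta-hydrolase family gene, Peg3, a zinc-finger protein, Dlk1, a transmembrane relative of the Notch ligands, and Plagl1, a zinc-finger transcription factor. H19, a non-coding RNA beside Igf2, is expressed from the maternal copy, as are Meg3, a non-coding RNA of the Dlk1 region, Cdkn1c, the cyclin-dependent kinase inhibitor p57, Grb10, an adaptor that restrains insulin and growth-factor receptor signalling (in neurons it is expressed from the paternal copy), and Igf2r, the receptor that takes up IGF2 and routes it to lysosomes. Primordial germ cells erase imprints around the time they settle in the gonadal ridge, which is part of the AGM dissection. The deposited counts do not separate the 2 parental copies, so every value below is the sum of both.

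In the mm10 assembly (GRCm38), with the annotation of GENCODE vM21, H19 lies at chr7:142575529-142578143 on the minus strand and Igf2 at chr7:142650766-142666816 on the minus strand. Dlk1 lies at chr12:109452823-109463336 on the plus strand and Meg3 at chr12:109541001-109571726 on the plus strand. The other members are Mest at chr6:30723547-30748465 on the plus strand, Peg3 at chr7:6703892-6730431 on the minus strand, Cdkn1c at chr7:143458339-143461050 on the minus strand, Grb10 at chr11:11930508-12038683 on the minus strand, Igf2r at chr17:12682406-12769664 on the minus strand and Plagl1 at chr10:13060504-13131694 on the plus strand. H19 and Meg3 are annotated as lincRNA and the other 8 as protein coding.

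H19 is also the host of miR-675, whose 2 mature arms lie inside the H19 gene at chr7:142577112-142577133 (5p) and chr7:142577078-142577099 (3p), both on the minus strand, in the RefSeq annotation of GRCm38.p6. They are shown because H19 carries the largest fold of a non-coding member in the germ cell comparison below. The libraries count 3′ ends of polyadenylated RNA and hold no measure of the mature arms. The seed (bases 2 to 8) is in capitals.
mmu-miR-675-5p: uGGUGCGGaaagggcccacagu
mmu-miR-675-3p: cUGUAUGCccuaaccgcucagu

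Mest and Peg3 are both paternally expressed, and in germ cell-like cells Mest was lower in MMPhigh while Peg3 passed no test, so 1 promoter window of each is shown (RefSeq, GRCm38.p6, 250 bases before to 50 after a transcript start). The Mest window is chr6:30737800-30738099 on the plus strand and holds 17 CpG. The Peg3 window is chr7:6730370-6730669 on the minus strand and holds 13 CpG, against a median of 7 over 32851 windows of the same length. Capitals mark GGGGCCCC, letters that occur on either strand in 1 of the 15 windows of the members and in 1.08% of all windows. H19 and Cdkn1c had no window among the 15.
Mest: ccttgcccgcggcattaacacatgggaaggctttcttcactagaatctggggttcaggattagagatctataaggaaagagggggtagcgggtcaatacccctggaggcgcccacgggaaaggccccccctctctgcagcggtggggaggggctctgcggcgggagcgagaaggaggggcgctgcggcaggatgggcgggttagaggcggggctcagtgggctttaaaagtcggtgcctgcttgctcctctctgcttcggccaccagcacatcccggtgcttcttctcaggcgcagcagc
Peg3: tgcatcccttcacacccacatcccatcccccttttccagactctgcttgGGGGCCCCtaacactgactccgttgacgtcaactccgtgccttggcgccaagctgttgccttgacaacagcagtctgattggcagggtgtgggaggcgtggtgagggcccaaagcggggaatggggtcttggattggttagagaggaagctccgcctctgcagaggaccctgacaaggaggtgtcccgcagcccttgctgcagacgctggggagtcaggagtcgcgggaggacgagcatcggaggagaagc

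The libraries were MMPlow 1 and 2 and MMPhigh 1 and 2, and pairs of values below follow that order. They held 51800709 to 120168395 UMIs (unique molecular identifiers, 1 per captured RNA), and 16698, 18583, 4403 and 3418 cells were retained. The median depth was 3145, 3651 and 3685 UMIs per cell in the first 3 and 23668.5 in MMPhigh 2, which stands apart. Pecam1, which encodes CD31, was at 275 and 261 CPM in MMPlow and 24.9 and 22 CPM in MMPhigh, so the MMPhigh libraries carried little RNA of the sort marker (CPM, counts of a gene scaled to the UMI total of the summed cells). Pairs of libraries shared 14 to 369 barcode sequences. Cells were clustered without the imprinted genes and named from 14 marker lists of 12 genes each. 7 classes had at least 20 cells in every library, and 2 more, endothelial-like and epithelial or mesonephric-like, had at least 10. Clusters without a name held 21.7% and 19.98% of MMPlow and 36.7% and 22.9% of MMPhigh cells. The labels do not say whether libraries came from separate embryos or sorts, so p-values measure the spread between these libraries, which may be technical. With 2 libraries a gate the smallest p of an exact test is 0.333, so gates without overlap are common by sampling alone. The share of all genes without overlap was not counted, and such statements below only describe the values.

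Among the 9 classes that had 10 or more cells per library, each of the 10 genes had its highest median level in muscle progenitor-like, mesenchymal-like or endothelial-like cells. In the plot of levels by class, muscle progenitor-like, mesenchymal-like and endothelial-like cells held the 3 highest median levels of H19, Igf2 and Mest. For H19 the endothelial-like rank rests on the 38 and 17 MMPhigh cells: within MMPlow, endothelial-like cells were at 889.7 and 742 CPM and epithelial or mesonephric-like cells higher, at 1184 and 949 CPM. Erythroid-like cells held the lowest median level of 7 members, macrophage-like cells that of Igf2r and germ cell-like cells those of Grb10 and Plagl1. Classes come from the same cells, so these levels are a description with no test, and a range covers the 4 libraries, both gates included.

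**Figure D1:**
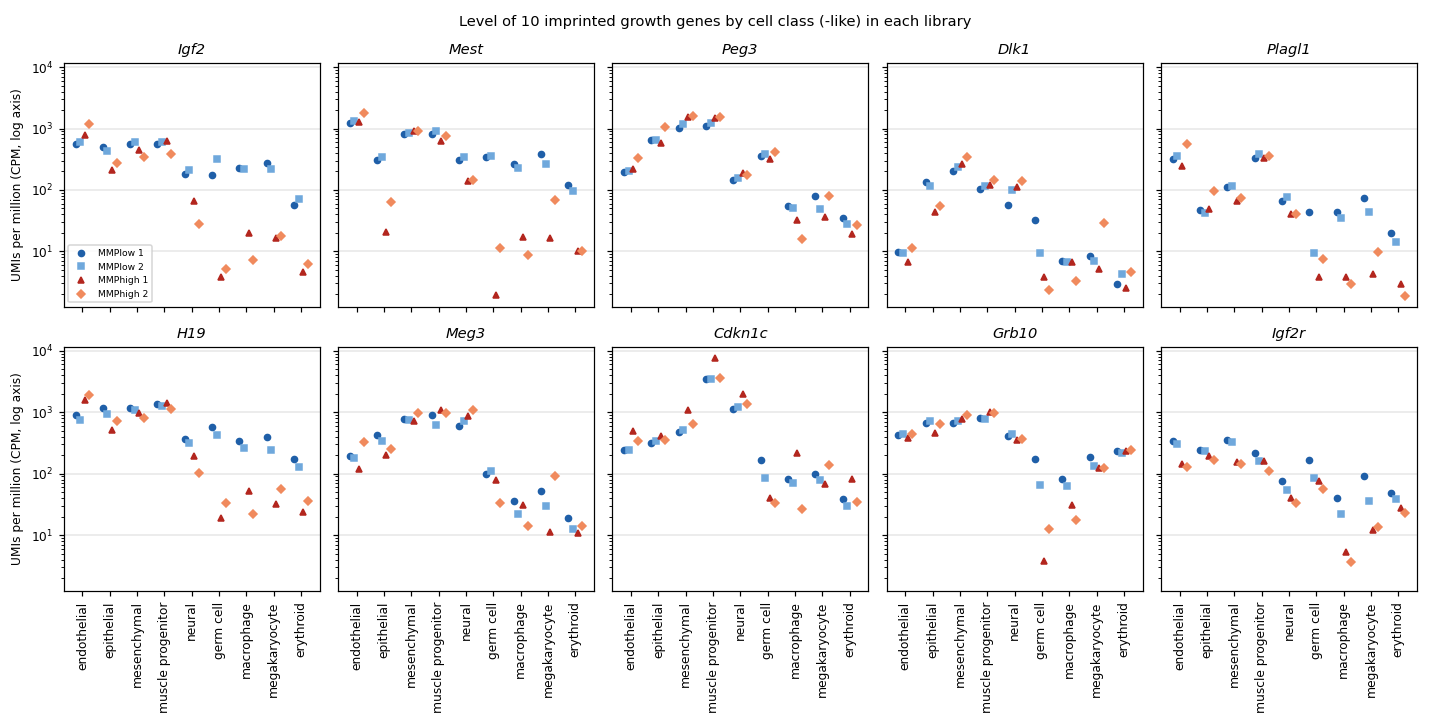
Level of each member (CPM, log axis) in 9 cell classes, 1 point per library, blue for MMPlow and red or orange for MMPhigh. H19, Igf2 and Mest have both MMPhigh points below both MMPlow points in the blood and germ cell-like classes, as Plagl1 has in the blood classes, while Peg3 in germ cell-like cells stays at 315 to 410.4 CPM in all 4 libraries.

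Among the paternally expressed members, Igf2 had its highest median in endothelial-like cells at 565 to 1202 CPM, followed by muscle progenitor-like cells at 386 to 632 CPM and mesenchymal-like cells at 344 to 611 CPM. Within MMPlow these 3 classes overlapped, at 565 and 598 CPM, 562 and 598 CPM and 557 and 611 CPM, and the higher endothelial-like values came from the few MMPhigh cells. Epithelial or mesonephric-like cells were at 208 to 492 CPM and neural or neural crest-like cells at 27.6 to 209.9 CPM. Macrophage-like (7.20 to 226 CPM), megakaryocyte-like (16.3 to 270.3 CPM), germ cell-like (3.85 to 316 CPM) and erythroid-like cells (4.56 to 71.2 CPM) came last. Every class overlapped the next in this order. Within MMPlow, macrophage-like cells at 226 and 221 CPM and megakaryocyte-like cells at 270.3 and 218 CPM lay above neural or neural crest-like cells. The latter were at 180 and 209.9 CPM there. Mest shared the top class, at 1211 to 1812 CPM in endothelial-like cells, above mesenchymal-like cells at 823 to 911 CPM and muscle progenitor-like cells at 632 to 896 CPM. Endothelial-like cells did not overlap the next class, and muscle progenitor-like cells lay above the neural or neural crest-like range of 139.9 to 345 CPM. Mest ran from 20.5 to 338 CPM in epithelial or mesonephric-like cells down to 1.92 to 363 CPM in germ cell-like, 16.3 to 384 CPM in megakaryocyte-like, 8.83 to 262 CPM in macrophage-like and 10.1 to 120.3 CPM in erythroid-like cells, and these neighbours overlapped.

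Peg3 had 4 steps without overlap in its order of classes, as Cdkn1c and Grb10 had. Mesenchymal-like (1010.4 to 1611 CPM) and muscle progenitor-like cells (1089 to 1514 CPM) overlapped each other and lay above epithelial or mesonephric-like cells at 592 to 1068 CPM. Germ cell-like cells followed at 315 to 410.4 CPM, overlapping endothelial-like cells at 199 to 337 CPM, then neural or neural crest-like cells at 147 to 191 CPM. The blood classes lay below all of these without overlap, at 36.9 to 79.5 CPM in megakaryocyte-like, 16.1 to 54.7 CPM in macrophage-like and 19.4 to 34.4 CPM in erythroid-like cells. Dlk1, known from preadipocytes and fetal stroma, was highest among these 9 classes in mesenchymal-like cells at 203 to 339 CPM, with no overlap with muscle progenitor-like cells at 104 to 145 CPM. Neural or neural crest-like cells were at 56.7 to 138 CPM and epithelial or mesonephric-like cells at 43.9 to 134 CPM. In the other 5 classes Dlk1 did not exceed 32.9 CPM in any library, endothelial-like cells included at 6.82 to 11.2 CPM. Plagl1 followed a different order, with muscle progenitor-like (326 to 379 CPM) and endothelial-like cells (246 to 567 CPM) above mesenchymal-like cells at 67 to 117 CPM without overlap. The other 6 classes were at 40.1 to 76.1 CPM in neural or neural crest-like, 42.6 to 97.1 CPM in epithelial or mesonephric-like, 4.29 to 72.7 CPM in megakaryocyte-like, 3.0 to 44.1 CPM in macrophage-like, 1.88 to 19.8 CPM in erythroid-like and 3.85 to 43.8 CPM in germ cell-like cells, each overlapping the next.

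Of the maternally expressed members, H19 was highest in muscle progenitor-like cells at 1131 to 1409 CPM, overlapping endothelial-like (742 to 1930.0 CPM), mesenchymal-like (800.0 to 1179 CPM) and epithelial or mesonephric-like cells (516 to 1184 CPM). A gap separated these from neural or neural crest-like cells at 104 to 367 CPM. Germ cell-like (19.2 to 569.7 CPM), macrophage-like (22.2 to 342 CPM), megakaryocyte-like (31.8 to 398 CPM) and erythroid-like cells (23.8 to 176 CPM) overlapped in turn. Meg3 was at 626 to 1083 CPM in muscle progenitor-like, 588 to 1095 CPM in neural or neural crest-like and 728 to 964 CPM in mesenchymal-like cells, which overlapped. It was lower in epithelial or mesonephric-like (202 to 419 CPM) and endothelial-like cells (119 to 329 CPM), and lower again, without overlap, in germ cell-like cells at 33.2 to 112 CPM. Megakaryocyte-like (11.2 to 93 CPM), macrophage-like (14.1 to 36.1 CPM) and erythroid-like cells (10.9 to 18.8 CPM) had the least Meg3.

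Cdkn1c, which holds cells out of the cycle as they differentiate, stood out in muscle progenitor-like cells at 3424 to 7669 CPM. Neural or neural crest-like (1112 to 1981 CPM) and mesenchymal-like cells (485 to 1089 CPM) followed, each below the last without overlap. Epithelial or mesonephric-like (313 to 404 CPM) and endothelial-like cells (239.7 to 488 CPM) overlapped each other, and megakaryocyte-like (67 to 137 CPM), macrophage-like (26.9 to 216 CPM), germ cell-like (33.2 to 164 CPM) and erythroid-like cells (29.8 to 81.3 CPM) came last. Within the muscle class, Cdkn1c ran from 1751 CPM in 1 of 7 clusters to 10400.2 CPM in the cluster of 51 cells led by Tnnt2, Tnnc2 and Actc1, genes of the contractile apparatus. Within the 16 neural or neural crest-like clusters of at least 20 cells it ran from 256 to 3876 CPM, highest in 28 cells led by Hand2os1, Cck and Dbh, the last an enzyme of noradrenaline synthesis. The same 28 cells held the highest neural level of Dlk1 (467 CPM), Meg3 (1963 CPM), H19 (407 CPM) and Peg3 (542 CPM). Among 25 endothelial-like clusters, H19 (1622 CPM) and Igf2 (1126 CPM) both peaked in the 380 cells led by Gja4, Vegfc and Gja5, genes known from arteries.

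Grb10 ran from muscle progenitor-like (784 to 1008 CPM) and mesenchymal-like (676 to 917 CPM) to epithelial or mesonephric-like cells (457 to 720.0 CPM), and from there without overlap to endothelial-like (382 to 447 CPM) and neural or neural crest-like cells (351 to 436 CPM). In erythroid-like cells all 4 libraries, at 213 to 240.4 CPM, lay above both other blood classes, which held for no other member, at 124 to 184 CPM in megakaryocyte-like and 17.9 to 82.2 CPM in macrophage-like cells. Germ cell-like cells had the lowest median, at 3.85 to 175 CPM. This rank rests on MMPhigh: in MMPlow they were at 175 and 65.1 CPM and macrophage-like cells at 82.2 and 62.1 CPM. Igf2r was at 144 to 351 CPM in mesenchymal-like, 126 to 339 CPM in endothelial-like, 164 to 243 CPM in epithelial or mesonephric-like, 109 to 215 CPM in muscle progenitor-like and 55.7 to 164 CPM in germ cell-like cells. It was at 32.8 to 75.3 CPM in neural or neural crest-like, 23 to 48.9 CPM in erythroid-like, 12 to 92.6 CPM in megakaryocyte-like and 3.71 to 39.7 CPM in macrophage-like cells, and every neighbour in the order overlapped.

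A few smaller populations fell outside these 9 classes. Hepatocyte-like cells, 42 in MMPhigh 1 and 1 to 4 in each other library, had Dlk1 at 1062 CPM and Cdkn1c at 1743 CPM. In 147 and 122 mesothelial or gonadal-like cells of MMPlow, Peg3 was at 1170 and 1661 CPM. In 392, 437 and 18 haematopoietic progenitor-like cells of MMPlow 1, MMPlow 2 and MMPhigh 2, Mest was at 308, 260.3 and 1.63 CPM, the last of these 1 UMI. The 12 endothelial markers summed to 940.7, 857 and 436 CPM in the same cells, and Emcn was at 131, 122 and 27.7 CPM. Their part in the Mest levels was not tested.

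Summed over all retained cells, 6 members were lower and 4 higher in MMPhigh. All 10 of 10 passed the test, but so did 53.7% of the 20517 genes tested (27.2% higher and 26.5% lower), and the gates hold different cells: endothelial-like cells made up 7701 and 8678 cells of MMPlow against 38 and 17 of MMPhigh. In these sums a change in the share of a class and a change of level within it cannot be told apart. Growth-promoting Igf2 was at 439 and 450.0 CPM in MMPlow and 119.9 and 70.6 CPM in MMPhigh, a log2 fold of -2.19 ± 0.28 (SE, adjusted p = 0.00236 by edgeR). Its neighbour H19 was at 749.7 and 610.4 CPM in MMPlow and 280.3 and 202 CPM in MMPhigh, a log2 fold of -1.46 ± 0.19 (SE, adjusted p = 0.000585 by edgeR). In both genes the 2 MMPhigh libraries lay below both MMPlow libraries.

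Mest was at 832 and 843 CPM in MMPlow and 215 and 191 CPM in MMPhigh, a log2 fold of -2.01 ± 0.12 (SE, adjusted p = 3.11e-06 by edgeR). Plagl1 was at 197 and 209.6 CPM in MMPlow and 47.2 and 48.5 CPM in MMPhigh, a log2 fold of -2.05 ± 0.092 (SE, adjusted p = 7.58e-07 by edgeR). Igf2r was at 246 and 206 CPM in MMPlow and 53.4 and 40.8 CPM in MMPhigh, a log2 fold of -2.23 ± 0.16 (SE, adjusted p = 2.85e-05 by edgeR). For these 3 genes too the gates did not overlap. In the opposite direction, Cdkn1c was at 314 and 312 CPM in MMPlow and 1095 and 772 CPM in MMPhigh, a log2 fold of 1.62 ± 0.18 (SE, adjusted p = 0.000191 by edgeR). Dlk1 was at 41.2 and 43.9 CPM in MMPlow and 90.3 and 93 CPM in MMPhigh, a log2 fold of 1.14 ± 0.085 (SE, adjusted p = 1.14e-05 by edgeR). Its neighbour Meg3 was at 249 and 215 CPM in MMPlow and 432 and 522 CPM in MMPhigh, a log2 fold of 1.08 ± 0.12 (SE, adjusted p = 0.000159 by edgeR). Both genes of this region rose, with no overlap between gates for either or for Cdkn1c, and there were 4.78 to 6.05 Meg3 UMIs per Dlk1 UMI over the 4 libraries.

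Peg3 and Grb10 differed least. Peg3 was at 292 and 302 CPM in MMPlow and 377 and 344 CPM in MMPhigh, a log2 fold of 0.32 ± 0.11 (SE, adjusted p = 0.0347 by edgeR). Grb10 was at 392 and 385 CPM in MMPlow and 307 and 317 CPM in MMPhigh, a log2 fold of -0.28 ± 0.097 (SE, adjusted p = 0.0379 by edgeR). Both calls were lost when MMPlow 1, MMPlow 2 or MMPhigh 1 was left out, with edgeR adjusted p from 0.0536 to 0.266. In another fit each of 7 classes gave the same number of cells to every library (1908 cells per library). That number differed between classes, from 26 germ cell-like to 825 macrophage-like cells, and endothelial-like cells were left out. There 5 members passed, and 15.3% of 16429 genes did. H19, Dlk1, Mest, Igf2r and Plagl1 kept their calls, while Igf2 was at -1.33 (edgeR adjusted p = 0.0612), Cdkn1c at 0.72 (edgeR adjusted p = 0.195) and Meg3 at 0.32 (edgeR adjusted p = 0.112). The fold of Grb10 changed sign in this fit, and that of Peg3 changed sign among cells of at least 5000 UMIs.

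**Figure D2:**
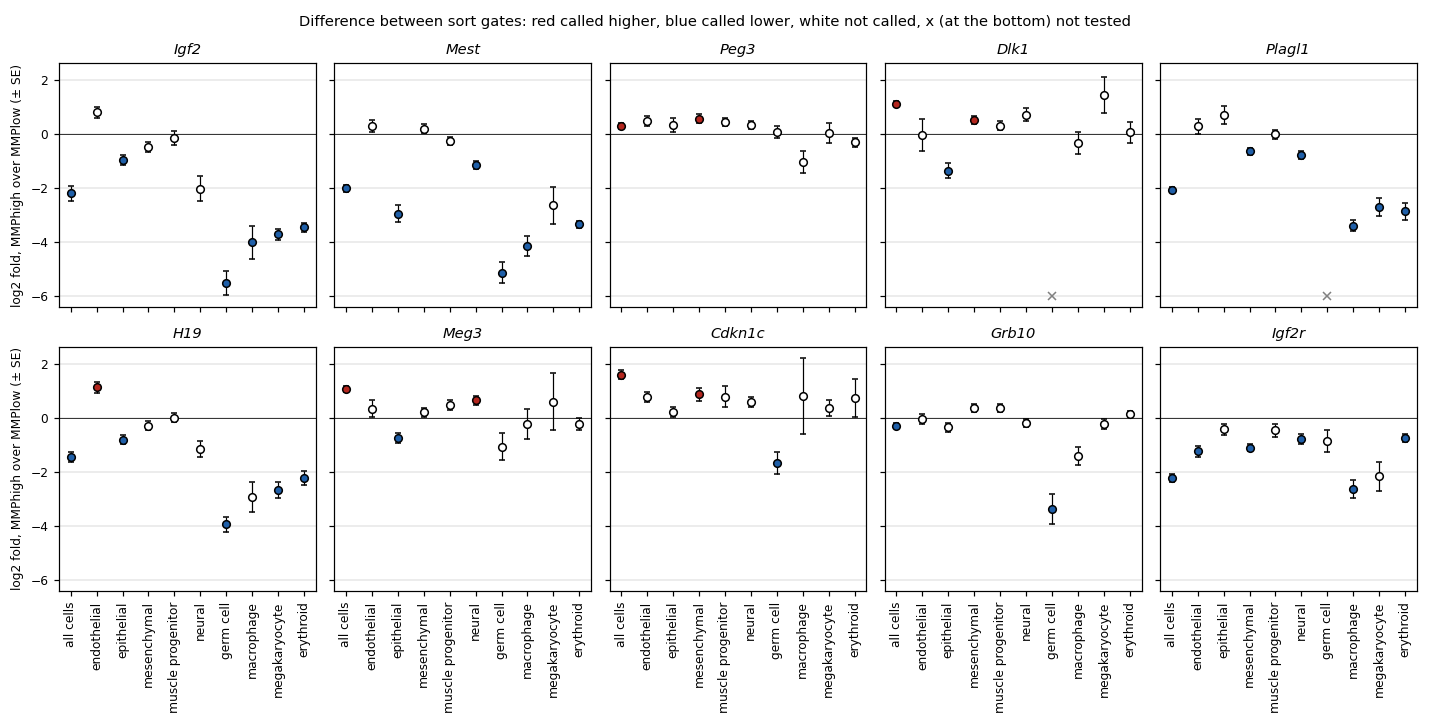
Log2 fold of MMPhigh over MMPlow for each member in all cells and in 9 cell classes, with the standard error as bars; red points were called higher, blue points were called lower, white points were not called and a cross at the bottom marks a member not tested. Folds of H19, Igf2, Mest and Plagl1 lie between -2.23 and -5.53 where called in the erythroid-like, macrophage-like, megakaryocyte-like and germ cell-like classes and nearer 0 in the mesenchymal-like and muscle progenitor-like classes.

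The germ cell-like class was small, with 31 and 26 cells in MMPlow and 27 and 44 in MMPhigh, and in it 5 of 8 members tested were lower in MMPhigh, against 4.56% lower and 5.28% higher of 5831 genes tested. Mest had 31, 39, 1 and 24 UMIs, or 339.6 and 363 CPM in MMPlow and 1.92 and 11.2 CPM in MMPhigh, a log2 fold of -5.14 ± 0.38 (SE, adjusted p = 5.80e-09 by edgeR). Igf2 had 16, 34, 2 and 11 UMIs, or 175 and 316 CPM in MMPlow and 3.85 and 5.15 CPM in MMPhigh, a log2 fold of -5.53 ± 0.44 (SE, adjusted p = 1.85e-08 by edgeR). H19 had 52, 45, 10 and 71 UMIs, or 569.7 and 419 CPM in MMPlow and 19.2 and 33.2 CPM in MMPhigh, a log2 fold of -3.94 ± 0.28 (SE, adjusted p = 3.09e-09 by edgeR). In each of these 3 genes both MMPhigh libraries were far below both MMPlow libraries, and the calls held when any 1 library was left out.

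Grb10 was at 175 and 65.1 CPM in MMPlow and 3.85 and 12.6 CPM in MMPhigh, a log2 fold of -3.39 ± 0.56 (SE, adjusted p = 0.000362 by edgeR). Cdkn1c was at 164 and 83.7 CPM in MMPlow and 40.4 and 33.2 CPM in MMPhigh, a log2 fold of -1.67 ± 0.41 (SE, adjusted p = 0.0104 by edgeR). These calls were lost without MMPlow 1, MMPhigh 1 or MMPhigh 2 (edgeR adjusted p from 0.112 to 0.366), and rested on 9 to 71 UMIs per library for Cdkn1c and 2 to 27 for Grb10. Peg3 did not follow, at 362 and 391 CPM in MMPlow and 315 and 410.4 CPM in MMPhigh, with overlapping gates and a log2 fold of 0.073 ± 0.22 (SE, adjusted p = 0.890 by edgeR). Meg3 at 98.6 and 112 CPM in MMPlow and 78.8 and 33.2 CPM in MMPhigh had a log2 fold of -1.06 (edgeR adjusted p = 0.194), and Igf2r at 164 and 83.7 CPM in MMPlow and 76.9 and 55.7 CPM in MMPhigh had -0.85 (edgeR adjusted p = 0.184). Dlk1 (1 to 5 UMIs per library) and Plagl1 (1 to 16 UMIs) did not pass the filter on low counts.

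The 2 gates drew this class from different clusters. In MMPlow 31 and 25 of the cells lay in a cluster led by Rhox5, Gm37245, Rhox9 and Dppa5a, and in MMPhigh 24 and 44 lay in a cluster led by Dppa5a, Dppa3 and Rhox9. Of 12 germ cell markers, 10 and 8 were detected in MMPlow and 11 and 12 in MMPhigh. Dppa3, a marker of primordial germ cells, was at 208 and 260.5 CPM in MMPlow and 906 and 763 CPM in MMPhigh, and Dppa5a was at 756 and 995 CPM in MMPlow and 3432 and 3165 CPM in MMPhigh. Dazl and Nanog were at 0 in both MMPlow libraries and at 30.8 to 92.2 CPM in MMPhigh. The median depth was 2815 and 3952 UMIs in MMPlow and 5928 and 47231 UMIs in MMPhigh. The 0 values and the counts of germ cell markers detected therefore also depend on depth. All 12 endothelial markers were detected in MMPlow and 5 and 7 in MMPhigh, with a summed level of 657 and 521 CPM in MMPlow and 49.99 and 48.7 CPM in MMPhigh. Emcn was at 0 in both MMPhigh libraries, and Cdh5 and Emcn together were at 208 and 112 CPM in MMPlow and 1.92 and 4.21 CPM in MMPhigh. Mitochondrial genes took 7.57 and 8.66% in MMPlow and 5.44 and 4.25% in MMPhigh. The part of these differences in the folds of the members was not tested. With the imprinted genes left in the clustering, the class held 24, 28, 370 and 46 cells. In MMPhigh 1 the main clustering gave it 27 cells, so most of the 370 had not been named germ cell-like. No member passed in this setting, where 0.0111% of 9014 genes did. H19 was at -2.45 (edgeR adjusted p = 0.194), Igf2 at -3.05 (edgeR adjusted p = 0.321), Mest at -3.38 (edgeR adjusted p = 0.108) and Cdkn1c at 1.85 (edgeR adjusted p = 0.682).

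With cells thinned to 2000 UMIs each, an H19 UMI was found in 67.7% and 61.5% in MMPlow and 7.41% and 0% in MMPhigh, the last being 0 of 44 thinned cells, which allows up to 6.82% of cells with a UMI at that depth and sets no limit on cells that express the gene. The unthinned shares were 74.2% and 73.1% in MMPlow and 33.3% and 77.3% in MMPhigh. For Mest the thinned shares were 41.9% and 38.5% in MMPlow and 0% and 6.82% in MMPhigh, with 0 of 27 cells in MMPhigh 1 allowing up to 11.1%, and the unthinned shares 58.1% and 73.1% in MMPlow and 3.70% and 31.8% in MMPhigh. For Peg3 they were 48.4% and 42.3% in MMPlow and 44.4% and 45.5% in MMPhigh (unthinned 58.1% and 73.1% in MMPlow and 81.5% and 97.7% in MMPhigh). H19 and Mest were thus detected in a smaller share of MMPhigh than of MMPlow germ cell-like cells at equal depth, while the Peg3 shares of both gates lay between 42.3% and 48.4%. The 95% exact binomial intervals of the thinned shares, which cover counting error only, were 48.6 to 83.3% and 40.6 to 79.8% in MMPlow and 0.910 to 24.3% in MMPhigh 1 for H19 in the 3 libraries above 0 and 30.2 to 66.9% and 23.4 to 63.1% in MMPlow and 25.5 to 64.7% and 30.4 to 61.2% in MMPhigh for Peg3. The median depth before thinning was 2815, 3952, 5928 and 47231 UMIs. In erythroid-like cells, the class with the lowest median of both genes (median depth 11174, 13169, 8144 and 58003 UMIs), the thinned shares of Mest were 22.3% and 17.2% in MMPlow and 8.15% and 2.91% in MMPhigh and of Peg3 5.04% and 6.88% in MMPlow and 8.15% and 3.24% in MMPhigh.

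**Figure D3:**
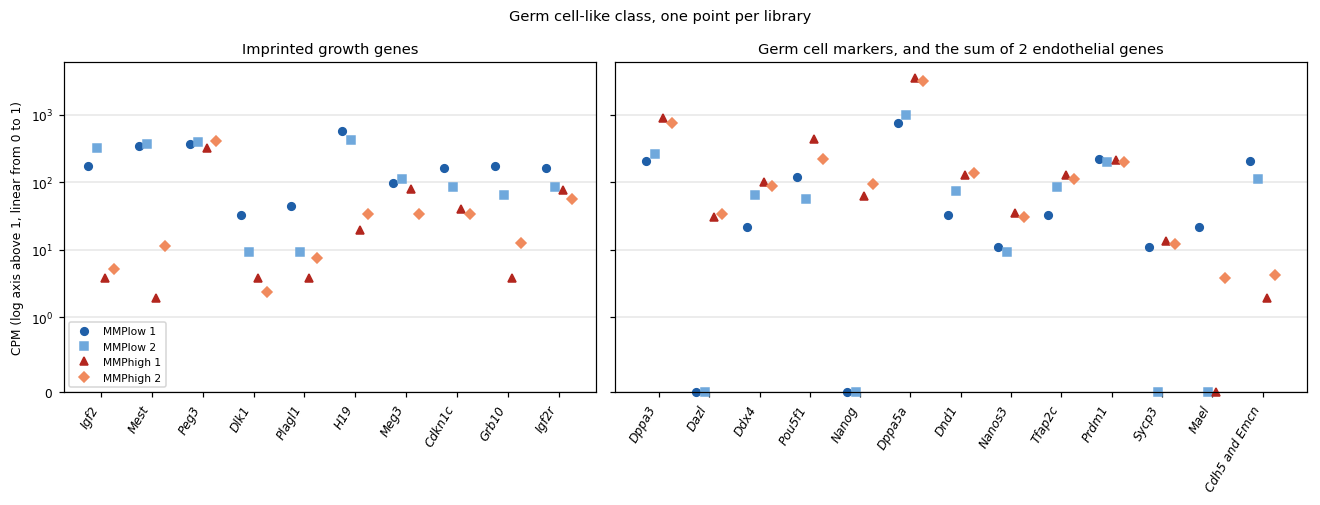
Levels in the germ cell-like class (CPM, log axis above 1 and linear from 0 to 1), 1 point per library: the 10 members on the left, 12 germ cell markers and the sum of Cdh5 and Emcn on the right. Mest, Igf2 and H19 are lower in MMPhigh, Peg3 lies between 315 and 410 CPM in all 4 libraries, and Dppa3 and Dppa5a are higher in MMPhigh.

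Igf2 and Plagl1 were lower in MMPhigh in each of the 3 blood classes, H19 in erythroid-like and megakaryocyte-like cells, and Mest in erythroid-like and macrophage-like cells. Among erythroid-like cells (278, 494, 184 and 309), 5 of 10 members were lower and none higher in MMPhigh, against 7.25% lower and 5.57% higher of 11337 genes. Mest was at 120.3 and 97.9 CPM in MMPlow and 10.1 and 10.3 CPM in MMPhigh, a log2 fold of -3.35 ± 0.14 (SE, adjusted p = 2.35e-09 by edgeR). Igf2 was at 56.2 and 71.2 CPM in MMPlow and 4.56 and 6.12 CPM in MMPhigh, a log2 fold of -3.45 ± 0.16 (SE, adjusted p = 8.04e-09 by edgeR). H19 was at 176 and 128 CPM in MMPlow and 23.8 and 35.4 CPM in MMPhigh, a log2 fold of -2.23 ± 0.25 (SE, adjusted p = 0.00980 by edgeR). Gates did not overlap for these 3 genes. Plagl1 was at 19.8 and 14.4 CPM in MMPlow and 2.97 and 1.88 CPM in MMPhigh, a log2 fold of -2.86 ± 0.31 (SE, adjusted p = 3.24e-05 by edgeR). Igf2r was at 48.9 and 38.4 CPM in MMPlow and 27.8 and 23 CPM in MMPhigh, a smaller log2 fold of -0.74 ± 0.15 (SE, adjusted p = 0.00740 by edgeR). Grb10, the member highest in these cells relative to other blood, was at 233 and 213 CPM in MMPlow and 236 and 240.4 CPM in MMPhigh, a log2 fold of 0.15 ± 0.10 (SE, adjusted p = 0.385 by edgeR). The call for H19 was lost among cells of at least 5000 UMIs (edgeR adjusted p 0.0708), and those for Igf2 and Mest at clustering resolution 0.5 (0.129 and 0.0549). Of the other 4, folds ran from -0.29 (Peg3) to 0.74 (Cdkn1c) and none passed. The gates differed in clusters here too: a cluster led by Gm15915, Ermap and Cpox held 147 and 300 of the MMPlow cells and 11 and 41 of the MMPhigh cells, and one led by Hbb-bs and Slc25a21 held 24 and 25 against 70 and 246.

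Among macrophage-like cells (825, 1101, 1003 and 905), 4 of 10 members were lower, against 10.5% lower and 10.3% higher of 13280 genes. Plagl1 was at 44.1 and 35 CPM in MMPlow and 3.84 and 3.0 CPM in MMPhigh, a log2 fold of -3.39 ± 0.20 (SE, adjusted p = 3.95e-05 by edgeR). Igf2r was at 39.7 and 22.2 CPM in MMPlow and 5.30 and 3.71 CPM in MMPhigh, a log2 fold of -2.63 ± 0.32 (SE, adjusted p = 0.00247 by edgeR). Mest was at 262 and 225 CPM in MMPlow and 17.3 and 8.83 CPM in MMPhigh, a log2 fold of -4.14 ± 0.37 (SE, adjusted p = 0.00656 by edgeR). For these 3 genes both MMPhigh libraries were below both MMPlow libraries by several fold. Igf2 was at 226 and 221 CPM in MMPlow and 19.6 and 7.20 CPM in MMPhigh, a log2 fold of -4.02 ± 0.60 (SE, adjusted p = 0.0443 by edgeR). The calls for Igf2 and Mest were lost without MMPlow 1 (edgeR adjusted p 0.294 and 0.13) or MMPlow 2 (0.259 and 0.0950). H19, at 342 and 264 CPM in MMPlow and 51.4 and 22.2 CPM in MMPhigh, had a log2 fold of -2.92 (edgeR adjusted p = 0.0680).

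Cdkn1c separated the 2 MMPhigh libraries of this class, at 82.8 and 69.5 CPM in MMPlow and 216 and 26.9 CPM in MMPhigh. Its log2 fold of 0.82 (edgeR adjusted p = 0.760) became -1.33 without MMPhigh 1 and 1.70 without MMPhigh 2. Grb10 (log2 fold -1.41, edgeR adjusted p = 0.0586), Peg3 (log2 fold -1.03, edgeR adjusted p = 0.173), Dlk1 (log2 fold -0.32, edgeR adjusted p = 0.615) and Meg3 (log2 fold -0.21, edgeR adjusted p = 0.833) did not pass. A cluster led by F13a1, Gm2245 and Mrc1 held 388 and 516 of the MMPlow cells and 2 and 1 of the MMPhigh cells, and one led by Aif1, Tyrobp and C1qb held 340 cells of MMPhigh 1 and 17 of MMPhigh 2. Another pair of clusters, with 191 cells of MMPhigh 1, 11 of MMPhigh 2 and 1 of MMPlow, shared 3 leading genes each with neural clusters, Crabp1 and Igfbpl1 among them. Without this pair, an alternative added after the data were seen, all members but Cdkn1c were lower, 9 of 10, and Cdkn1c was at 0.028 (edgeR adjusted p = 0.992). In that fit 13.8% of 13076 genes were lower. H19 was then at -3.19 (edgeR adjusted p = 0.0142) and Grb10 at -1.79 (edgeR adjusted p = 3.29e-05). In the 4 of 15 clusters with at least 5 cells in every library, 7 members were lower, against 5.95% of 10961 genes.

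Among megakaryocyte-like cells (962, 976, 137 and 191), 3 of 10 members were lower, against 4.42% lower and 1.77% higher of 12327 genes. Igf2 was at 270.3 and 218 CPM in MMPlow and 16.3 and 17.7 CPM in MMPhigh, a log2 fold of -3.70 ± 0.21 (SE, adjusted p = 6.27e-06 by edgeR). H19 was at 398 and 247 CPM in MMPlow and 31.8 and 55.8 CPM in MMPhigh, a log2 fold of -2.68 ± 0.30 (SE, adjusted p = 0.00351 by edgeR). Plagl1 was at 72.7 and 44.4 CPM in MMPlow and 4.29 and 9.86 CPM in MMPhigh, a log2 fold of -2.71 ± 0.34 (SE, adjusted p = 0.00385 by edgeR). The gates did not overlap for any of the 3, but the Plagl1 call was lost without MMPlow 1 (edgeR adjusted p 0.0581), and all 3 among cells of at least 5000 UMIs (0.0850, 0.447 and 0.206). Mest, at 384 and 266 CPM in MMPlow and 16.3 and 69.4 CPM in MMPhigh, and Igf2r, at 92.6 and 36 CPM in MMPlow and 12 and 13.4 CPM in MMPhigh, had log2 folds of -2.64 (edgeR adjusted p = 0.160) and -2.17 (edgeR adjusted p = 0.106). In MMPhigh 2, 103 of the 191 cells lay in a cluster that no other library entered. Its 10 leading genes held the megakaryocyte genes Ppbp, Pf4 and Rab27b and 7 genes that also lead neural clusters, among them Thsd7b, Kcnmb2 and Pou4f1, and its median depth was 0.23 of its library's, so its name is doubtful. In that library Dlk1 (29.1 CPM) and Meg3 (93.0 CPM) were above the other 3 (5.15 to 8.27 and 11.2 to 52.9 CPM). The log2 fold of Meg3 was -1.69 without MMPhigh 2 and 1.28 without MMPhigh 1. Without the mixed cluster, an alternative added after the data were seen, 7 members were lower in the other 962, 976, 137 and 88 cells, where 11% of 11690 genes were lower, also a larger share than with all cells. Igf2 was then at -5.00 (edgeR adjusted p = 0.00379), H19 at -4.17 (edgeR adjusted p = 0.0326) and Plagl1 at -3.33 (edgeR adjusted p = 7.43e-06). Mest (-3.29), Igf2r (-2.63), Meg3 (-1.91) and Peg3 (-1.27) were called there and not with all cells of the class (edgeR adjusted p from 0.000116 to 0.0469), and for Meg3 and Peg3 the sign had turned. In the 4 clusters with at least 5 cells in every library, H19 had -3.86 (edgeR adjusted p = 0.151) and was not called.

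RNA of endothelial genes moved with these results. In MMPlow all 12 endothelial markers were detected in each blood class, and in MMPhigh 7 to 11 were: their sum was 721 and 518 CPM in MMPlow and 50.2 and 50.5 CPM in MMPhigh in macrophage-like cells, 1396 and 921 CPM in MMPlow and 300.5 and 256 CPM in MMPhigh in megakaryocyte-like cells and 411 and 343 CPM in MMPlow and 123 and 128 CPM in MMPhigh in erythroid-like cells. The number detected in MMPhigh was 11 and 11, 7 and 8, and 10 and 11. Cdh5 and Emcn, 2 of the 12 markers, were together at 193 and 141 CPM in MMPlow and 1.45 and 2.25 CPM in MMPhigh in macrophage-like cells. As a percentage of the endothelial-like level of the same library, MMPlow macrophage-like cells held 13.4% and 8.94% of Cdh5 and Emcn and 13.8% and 9.64% of Plagl1. Megakaryocyte-like cells held 23.5% and 12.1% and 22.7% and 12.3%, and erythroid-like cells 6.22% and 3.55% and 6.20% and 3.96%. In MMPlow the Plagl1 percentages of the blood classes were thus near those of the endothelial genes. In MMPhigh they were not: Plagl1 was at 1.56% and 0.528% against 0.139% and 0.143% for Cdh5 and Emcn in macrophage-like cells, 1.75% and 1.74% against 0.0820% and 0.0572% in megakaryocyte-like cells and 1.21% and 0.332% against 0.0189% and 0.0401% in erythroid-like cells. These MMPhigh percentages rest on the 38 and 17 endothelial-like cells and on 1 to 54 UMIs of Cdh5 and Emcn in a blood class. In MMPlow Mest stood higher, at 21.6% and 17.1% in macrophage-like cells, and H19 and Igf2 higher still, at 38.5% and 35.6% and 39.98% and 36.9%. In germ cell-like cells the values were 14.4% and 7.07% for Cdh5 and Emcn, 28% and 27.7% for Mest, 64% and 56.4% for H19 and 182% and 189% for Peg3. Other RNA differed too. In macrophage-like cells Malat1 was at 7321 and 6535 CPM in MMPlow and 4792 and 4301 CPM in MMPhigh. Malat1 was also lower in both MMPhigh libraries in megakaryocyte-like and erythroid-like cells, as Hbb-y was in erythroid-like cells.

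**Figure D4:**
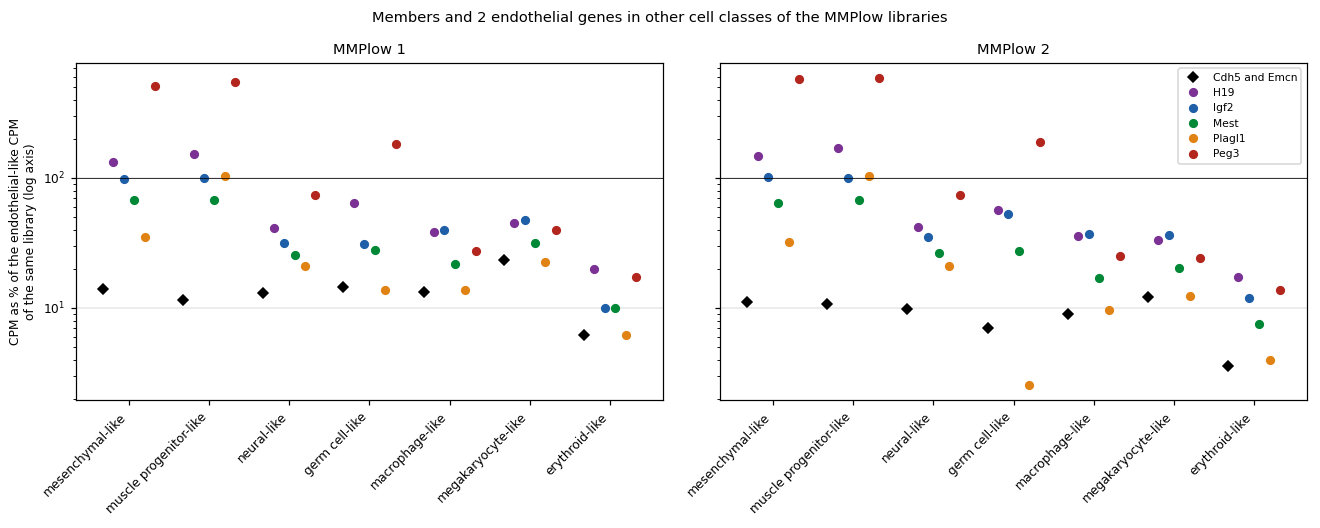
CPM of 5 members (circles) and of Cdh5 and Emcn together (black diamonds) in 7 cell classes of MMPlow 1 and MMPlow 2, as a percentage of the endothelial-like CPM of the same library (log axis). In the 3 blood classes Plagl1 lies on the diamonds, and Mest, H19 and Igf2 lie above them. Whether the RNA above the diamonds comes from the blood cells themselves was not tested.

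Barcodes of 1000 to 1999 UMIs, which were not retained, held Mest at 713 and 711 CPM in MMPlow (39077 and 3818 barcodes) and 158 and 417 CPM in MMPhigh (4834 and 108 barcodes), and Cdh5 and Emcn at 496 and 620 CPM and 10.6 and 61.5 CPM. In the same barcodes H19 was at 1003 and 749 CPM in MMPlow and 290 and 752 CPM in MMPhigh. Igf2 was at 723 and 718 CPM in MMPlow and 154 and 471 CPM in MMPhigh. Plagl1 was at 107 and 157 CPM in MMPlow and 26.7 and 75.2 CPM in MMPhigh. In cells with no UMI of any of the 12 endothelial markers, an alternative added after the data were seen, 107, 115, 760 and 423 macrophage-like cells remained. There Plagl1 had a log2 fold of -2.58 (edgeR adjusted p = 0.00892), Mest of -3.80 (edgeR adjusted p = 0.133) and Igf2 of -3.59 (edgeR adjusted p = 0.273). In the 54, 41, 53 and 51 megakaryocyte-like cells of this kind, Igf2 had a log2 fold of -1.78 (edgeR adjusted p = 0.0161) and H19 of -1.25 (edgeR adjusted p = 0.0732), nearer 0 than with all cells of the class. In all MMPhigh megakaryocyte-like cells (137 and 191) the 12 markers summed to 300.5 and 256 CPM, but Cdh5 and Emcn to 0.859 and 0.896 CPM. The filter thus removed MMPhigh cells mostly through other markers of the list. These folds therefore do not show what remains without endothelial RNA. Too few erythroid-like (6 to 73) and germ cell-like cells (2 to 13) remained for a fit. The part of endothelial RNA in the folds of the blood and germ cell-like classes was not tested. At a median depth of 2911 and 3360 UMIs in macrophage-like cells of MMPlow, a cell can lack a marker UMI by sampling. Cells with none of these UMIs are therefore not the same as cells without endothelial RNA.

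In mesenchymal-like cells (1599, 1710, 444 and 395) 3 members were higher and 2 lower in MMPhigh, against 5.83% higher and 11.8% lower of 14552 genes. Igf2r was at 351 and 322 CPM in MMPlow and 154 and 144 CPM in MMPhigh, a log2 fold of -1.09 ± 0.14 (SE, adjusted p = 7.15e-05 by edgeR). Plagl1 was at 112 and 117 CPM in MMPlow and 67 and 72.7 CPM in MMPhigh, a log2 fold of -0.63 ± 0.12 (SE, adjusted p = 0.00230 by edgeR). In both genes the MMPhigh libraries lay below the MMPlow libraries. Cdkn1c was at 485 and 507 CPM in MMPlow and 1089 and 635 CPM in MMPhigh, a log2 fold of 0.89 ± 0.24 (SE, adjusted p = 0.0261 by edgeR). For Cdkn1c, MMPhigh 1 lay above MMPhigh 2 in every plotted class except megakaryocyte-like cells (67 and 137 CPM), so 1 library weighs on this fold. Peg3 was at 1010.4 and 1206 CPM in MMPlow and 1518 and 1611 CPM in MMPhigh, a log2 fold of 0.58 ± 0.17 (SE, adjusted p = 0.0323 by edgeR). Dlk1 was at 203 and 235 CPM in MMPlow and 263 and 339 CPM in MMPhigh, a log2 fold of 0.54 ± 0.15 (SE, adjusted p = 0.0200 by edgeR). All 3 calls of higher genes were lost without MMPlow 1 (edgeR adjusted p 0.0670 to 0.564), and those of Peg3 and Dlk1 also without MMPlow 2 (0.209 and 0.0771). At clustering resolution 2 only Igf2r kept its call, with a log2 fold of -1.01. Plagl1 (-0.26, edgeR adjusted p = 0.251), Cdkn1c (0.94, edgeR adjusted p = 0.0735), Peg3 (0.58, edgeR adjusted p = 0.0508) and Dlk1 (0.43, edgeR adjusted p = 0.0834) did not pass there, where 12.7% of all genes were called. The gates drew part of this class from different clusters: one led by Fabp7 and Gsta4 and one led by histone genes and Twist1 held 208 cells of MMPhigh 1 and 43 of MMPhigh 2 but 2 and 5 of MMPlow, with Cdkn1c at 1717 and 1209 CPM and Igf2r at 49.8 and 31.1 CPM. In the 10 clusters with at least 5 cells in every library (1312, 1439, 223 and 338 cells), Cdkn1c was not called, at 0.71 (edgeR adjusted p = 0.198), and Igf2r was at -0.78 (edgeR adjusted p = 1.64e-05). Plagl1, Peg3 and Dlk1 were called there too (log2 folds -0.60, 0.54 and 0.68), with Igf2 (-0.50), Meg3 (0.43) and Grb10 (0.38), beside 18.1% of all genes.

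H19 and Igf2, called lower in germ cell-like, erythroid-like and megakaryocyte-like cells, were at 1179 and 1093 CPM in MMPlow and 958 and 800.0 CPM in MMPhigh and at 557 and 611 CPM in MMPlow and 450.1 and 344 CPM in MMPhigh in mesenchymal-like cells, with log2 folds of -0.28 (edgeR adjusted p = 0.302) and -0.47 (edgeR adjusted p = 0.0708). Mest was at 823 and 842 CPM in MMPlow and 906 and 911 CPM in MMPhigh with a log2 fold of 0.21 (edgeR adjusted p = 0.417), Meg3 had 0.21 (edgeR adjusted p = 0.449) and Grb10 0.37 (edgeR adjusted p = 0.129). Endothelial markers summed to 726 and 569 CPM in MMPlow and 32.4 and 26.8 CPM in MMPhigh here. In mesenchymal-like cells with no endothelial marker UMI, the log2 folds of Igf2r, Plagl1 and Cdkn1c were -1.19 (edgeR adjusted p = 2.05e-05), -0.86 (edgeR adjusted p = 0.00438) and 0.86 (edgeR adjusted p = 0.0217). The calls of Peg3 (0.60, edgeR adjusted p = 0.0784) and Dlk1 (0.48, edgeR adjusted p = 0.127) were lost there, where 7.87% of all genes were called.

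In muscle progenitor-like cells (154, 170, 50 and 128) no member passed edgeR's test at an adjusted p of 0.05, where 2.31% of 9713 genes did. At an unadjusted p of 0.05 by edgeR, Peg3 (0.0138), Grb10 (0.0258) and Meg3 (0.0265) passed, as did 13.1% of all genes. DESeq2 and the other alternatives called 0 to 4 members, with the 4 at clustering resolution 2, where 10% of 11279 genes were called. H19 was at 1365 and 1261 CPM in MMPlow and 1409 and 1131 CPM in MMPhigh, with overlapping gates and a log2 fold of 0.015 (edgeR adjusted p = 0.985). Cdkn1c was at 3424 and 3427 CPM in MMPlow and 7669 and 3626 CPM in MMPhigh, where MMPhigh 1 alone stood apart, with a log2 fold of 0.80 (edgeR adjusted p = 0.513). The folds of the other 8 ran from -0.45 (Igf2r) to 0.49 (Meg3).

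Neural or neural crest-like cells (291, 302, 833 and 592) had 1 member higher and 3 lower in MMPhigh, against 4.54% and 6.11% of 13494 genes. Mest was at 309.6 and 345 CPM in MMPlow and 139.9 and 144 CPM in MMPhigh, a log2 fold of -1.14 ± 0.14 (SE, adjusted p = 0.000421 by edgeR). Plagl1 was at 67 and 76.1 CPM in MMPlow and 40.1 and 41 CPM in MMPhigh, a log2 fold of -0.76 ± 0.15 (SE, adjusted p = 0.00942 by edgeR). Igf2r was at 75.3 and 53.4 CPM in MMPlow and 39.8 and 32.8 CPM in MMPhigh, a log2 fold of -0.77 ± 0.19 (SE, adjusted p = 0.0249 by edgeR). Meg3, abundant in neurons, was at 588 and 709.6 CPM in MMPlow and 878 and 1095 CPM in MMPhigh, a log2 fold of 0.67 ± 0.17 (SE, adjusted p = 0.0277 by edgeR). The gates did not overlap for any of the 4. The Meg3 call was lost without MMPlow 1 or 2, that of Igf2r without MMPlow 1 and that of Plagl1 without MMPlow 2 (edgeR adjusted p 0.0570 to 0.308). Cdkn1c, at 1112 and 1203 CPM in MMPlow and 1981 and 1355 CPM in MMPhigh, and Dlk1, at 56.7 and 99.4 CPM in MMPlow and 112 and 138 CPM in MMPhigh, had log2 folds of 0.59 (edgeR adjusted p = 0.0742) and 0.73 (edgeR adjusted p = 0.0785). H19 at -1.14 (edgeR adjusted p = 0.0575) and Igf2 at -2.03 (edgeR adjusted p = 0.0706) did not pass either. Endothelial markers summed to 606 and 492 CPM in MMPlow and 38.5 and 21.1 CPM in MMPhigh, and in cells with none of them Mest had a log2 fold of -1.49 (edgeR adjusted p = 0.0293), the only member of this class to pass there, beside 0.261% of all genes. MMPhigh 1 had 341 of its 833 cells in a cluster led by Crabp1 and Cartpt that held 4 to 7 cells of each other library, and 144 in one led by Epha5 and Sst with 16 to 34 of each other library. In the 13 of all 17 clusters with at least 5 cells in every library (257, 288, 443 and 537 cells), Mest was at -1.14 (edgeR adjusted p = 0.000399), Plagl1 at -0.80 (edgeR adjusted p = 0.00936), Igf2r at -0.80 (edgeR adjusted p = 0.0276) and Meg3 at 0.53 (edgeR adjusted p = 0.0342), and H19 and Igf2 were called lower as well, with 5.34% of all genes lower.

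Endothelial-like cells (7701, 8678, 38 and 17) rest on very few MMPhigh cells, and 1.57% of 15133 genes passed (0.767% higher and 0.806% lower). H19 was at 889.7 and 742 CPM in MMPlow and 1599.7 and 1930.0 CPM in MMPhigh, a log2 fold of 1.14 ± 0.21 (SE, adjusted p = 0.0153 by edgeR). Igf2r was at 339 and 308 CPM in MMPlow and 143 and 126 CPM in MMPhigh, a log2 fold of -1.24 ± 0.20 (SE, adjusted p = 0.00734 by edgeR). H19 was higher and Igf2r lower in both MMPhigh libraries, and both calls were lost without MMPlow 1 (edgeR adjusted p 0.195 and 0.145) or MMPlow 2 (0.409 and 0.0709). The median log2 fold of all genes in this fit was -0.12. Mest, at 1211 and 1312 CPM in MMPlow and 1262 and 1812 CPM in MMPhigh, had a log2 fold of 0.32 (edgeR adjusted p = 0.543), and Plagl1, at 319.9 and 363 CPM in MMPlow and 246 and 567 CPM in MMPhigh, had 0.30 (edgeR adjusted p = 0.638), so these 2 genes, called lower in some MMPhigh blood classes, were not called lower here, while Igf2r was. Of the 38 MMPhigh 1 cells, 17 lay in a cluster led by Glra1, Sox2ot and Tfap2b, which had no endothelial marker among its 10 leading genes and shared 5 of them with neural clusters, so its place in this class is doubtful. Without it (7647, 8660, 21 and 17 cells), an alternative added after the data were seen, H19 was at 1.20 (edgeR adjusted p = 0.00385) and Igf2r at -1.25 (edgeR adjusted p = 0.00314), and Igf2 passed too, at 0.86 (edgeR adjusted p = 0.0277), with 1.68% of all genes called. No endothelial-like cluster had 5 cells in every library. The summed endothelial markers were at 4462 and 4713 CPM in MMPlow and 4322 and 5826 CPM in MMPhigh.

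Epithelial or mesonephric-like cells (154, 162, 14 and 15) had 5 members lower and none higher, against 6.22% lower and 6.98% higher of 8084 genes. Mest was at 308 and 338 CPM in MMPlow and 20.5 and 63.7 CPM in MMPhigh, a log2 fold of -2.95 ± 0.32 (SE, adjusted p = 3.76e-05 by edgeR). Igf2 was at 492 and 432 CPM in MMPlow and 208 and 270.1 CPM in MMPhigh, a log2 fold of -0.95 ± 0.19 (SE, adjusted p = 0.00236 by edgeR). Dlk1 was at 134 and 116 CPM in MMPlow and 43.9 and 54.6 CPM in MMPhigh, a log2 fold of -1.34 ± 0.28 (SE, adjusted p = 0.00297 by edgeR). The gates did not overlap for these 3 genes, and the Mest values of MMPhigh rest on 7 and 21 UMIs. H19 (log2 fold -0.80, edgeR adjusted p = 0.00777) and Meg3 (log2 fold -0.74, edgeR adjusted p = 0.0158) were also lower, calls lost without MMPlow 1 (0.142 and 0.290). Cdh5 was at 65.5 and 58.2 CPM and Emcn at 95.9 and 88.0 CPM in MMPlow, and both were at 0 in both MMPhigh libraries. Mitochondrial genes took 2.97 and 3.58% in MMPlow and 6.56 and 6.54% in MMPhigh. Cells had a median depth of 3197 and 3320 UMIs in MMPlow and 16661 and 23414 UMIs in MMPhigh. The gates also drew on different clusters: those led by Cxcl14 and Trp63 and by Sfn and Gabrp held 109 and 117 of the MMPlow cells and 2 and 5 of the MMPhigh cells. Those led by Frmpd4 and Pkhd1 and by Sfta3-ps and Epcam held 24 and 24 of the MMPlow cells and 11 and 9 of the MMPhigh cells. Mest was at 386 and 231 CPM in the first pair and at 99.6 and 84.0 CPM in the second, so its fold compares cells of different clusters. The part of these in the folds was not tested, since only 1 cluster had at least 5 cells in every library.

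Whether the contrast of the gates differs between classes was tested in 1 fit over the 7 classes with at least 20 cells per library, with the library as a block. It differed for 6 of 10 members, against 16.4% of 16437 genes. The edgeR adjusted p was 1.31e-07 for Plagl1, 7.54e-05 for Igf2, 0.000352 for Mest, 0.00249 for Grb10, 0.00274 for Igf2r and 0.00332 for H19. It was 0.240 for Peg3, 0.344 for Dlk1, 0.876 for Meg3 and 0.934 for Cdkn1c. For Plagl1 the folds of the 7 classes ran from -3.39 in macrophage-like to -0.0045 in muscle progenitor-like cells, with germ cell-like cells not tested on their own. For Igf2 they ran from -5.53 in germ cell-like to -0.13 in muscle progenitor-like cells, and for Mest from -5.14 to 0.21 in mesenchymal-like cells. For Grb10 they ran from -3.39 in germ cell-like to 0.39 in muscle progenitor-like cells. Leaving out MMPlow 1 or MMPlow 2, only Plagl1 (adjusted p 0.000356 and 7.67e-05 by edgeR) and Igf2r (0.00493 and 0.000488) still differed between classes, where 1.81% and 4.64% of all genes did, and the other 4 ran from 0.0542 to 0.438. Igf2r did not pass without MMPhigh 2 (0.148), so Plagl1 alone passed in all 4 of these fits. With the doubtful megakaryocyte-like and macrophage-like clusters removed, 9 members differed between classes, all but Cdkn1c, as did 24% of all genes.

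Neighbouring genes were compared by their ratio in each library. In muscle progenitor-like cells there were 2.43 and 2.11 in MMPlow and 2.23 and 2.93 in MMPhigh UMIs of H19 per UMI of Igf2, with overlapping gates. In mesenchymal-like cells there were 2.12 and 1.79 in MMPlow and 2.13 and 2.33 in MMPhigh, in macrophage-like cells 1.51 and 1.20 in MMPlow and 2.62 and 3.08 in MMPhigh and in neural or neural crest-like cells 2.04 and 1.49 in MMPlow and 2.90 and 3.77 in MMPhigh. In endothelial-like cells the ratio was 1.57 and 1.24 in MMPlow and 2.0 and 1.61 in MMPhigh, so the macrophage-like ratio of each MMPlow library was near the endothelial-like ratio of the same library. Both MMPhigh libraries were above both MMPlow libraries in these last 4 classes, by the smallest gap in mesenchymal-like cells, and also in erythroid-like and epithelial or mesonephric-like cells. In MMPlow the megakaryocyte-like ratio was near the endothelial-like one too, at 1.47 and 1.13. The erythroid-like ratio of MMPlow was higher, at 3.14 and 1.80. For Meg3 per Dlk1 the ratio was 3.87 and 3.23 in MMPlow and 2.77 and 2.84 in MMPhigh in mesenchymal-like and 10.4 and 7.14 in MMPlow and 7.86 and 7.94 in MMPhigh in neural or neural crest-like cells. In single mesenchymal-like cells thinned to 2000 UMIs, 27.5% of MMPlow 1 cells had a Dlk1 UMI and 69.2% a Meg3 UMI, and 21.7% had both, where 19.03% would have both if the 2 were independent. In MMPlow 2 the value was 25.7% against 21.6%, in MMPhigh 1 18.0% against 12.5% and in MMPhigh 2 28.6% against 26.9%. Cells with both were thus more frequent than independence gives in each library, as a description with no test.

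Over the 7 classes with at least 20 cells per library, levels of members were compared with each other. Pearson's r of the class means of log2(CPM + 10) was 0.608 to 0.980 over the 45 pairs of members, with a median of 0.836, and 0.974 for H19 with Igf2 and 0.964 for Dlk1 with Meg3. Over all pairs of the 7656 genes with a mean of at least 20 CPM the median was -0.0059, and 3.82% of those pairs were above the median of the members. With 7 points that share libraries and depth, these values describe the pattern only. Of 7656 genes compared, the 3 most like Igf2 were Ctdsp2 (0.991), Col4a1 (0.985) and Wwtr1 (0.984), and those most like Mest were Ghr (0.995), Col4a2 (0.988) and Col4a1 (0.988). Col4a1 and Col4a2 encode basement membrane collagen. Tcf15 (0.995), Wwtr1 (0.988) and Apool (0.988) were most like H19, and Phldb2 (0.998), Slc38a2 (0.997) and Epha7 (0.995) most like Dlk1. Fam110b (0.987), Gli3 (0.985) and Lamb1 (0.978) were most like Peg3, H2afy2 (0.996), Igf2bp2 (0.996) and Serf1 (0.995) most like Meg3, and Stard13 (0.985), Sema6a (0.984) and Cdh13 (0.984) most like Cdkn1c. Mocs2 (0.975), Cdc23 (0.975) and 2610318N02Rik (0.965) were most like Grb10, and Gys1 (0.991), Aopep (0.983) and Eya4 (0.972) most like Plagl1. For Igf2r they were Upf3a (0.988), Cnep1r1 (0.969) and Peg3 (0.960), the only case in which 1 member was among the 3 genes most like another.

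Other genes of the same pathways were counted from 4 lists. Of 55 other imprinted genes tested in all cells, 23 were higher and 15 lower in MMPhigh, where 27.2% and 26.5% of all genes were, with a median log2 fold of 0.056 against 0.012 for all genes. The largest folds were Kcnk9, a potassium channel, at 0.149 and 0.193 CPM in MMPlow and 3.06 and 2.92 CPM in MMPhigh (log2 fold 4.13), and Kcnq1, another potassium channel, at 27.8 and 25.3 CPM in MMPlow and 1.43 and 1.51 CPM in MMPhigh (log2 fold -4.13). Th (3.02), Nap1l5 (2.51) and Phlda2 (2.33) were higher. Among 27 genes of the insulin-like growth factor axis, 4 were higher and 8 lower, a smaller share than the 53.7% of all genes, with a median of -0.0079. Igfbp7 (-3.12), Igfbp3 (-1.79) and Igfbp4 (-1.57), which bind insulin-like growth factors, and Htra1 (-2.77), a secreted protease, were lower, and Lin28a (1.61), an RNA-binding protein, was higher. Of 20 genes that keep or erase imprints, 4 were higher and 5 lower, led by Dppa3 (3.20) and Apobec1 (1.51), with Trim28 (0.39) higher and Dnmt3b (-0.64) and Atrx (-0.36) lower. Of 16 cell cycle genes (cyclins of the D and E types, their kinases, kinase inhibitors and retinoblastoma family genes), 3 were higher (Cdkn1a 1.06, Cdk4 0.62, Cdkn2c 0.56) and 4 lower, among them Ccne2 (-1.10) and Rbl2 (-0.43).

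Within germ cell-like cells, 2 of 21 other imprinted genes tested were higher and 4 lower, with a median log2 fold of -0.41 against -0.0066 for all genes. The shares of all genes called in each class, given above, are the background of these counts. None of 9 genes of the growth factor axis was higher and 3 were lower, 2 of 15 genes that keep or erase imprints were higher and none lower, and 1 of 8 cell cycle genes was lower. In erythroid-like cells the other imprinted genes gave 2 higher and 5 lower of 34, and the growth factor axis 1 higher and 6 lower of 14. In macrophage-like cells they gave none higher and 5 lower of 38, and none higher and 5 lower of 17, and in megakaryocyte-like cells none higher and 4 lower of 34, and none higher and 3 lower of 15. In mesenchymal-like cells 4 of 45 other imprinted genes were higher and 5 lower, and of the growth factor axis 4 of 22 were higher and 1 lower. In neural or neural crest-like cells the counts were 4 higher and 5 lower of 45, and 1 higher and 4 lower of 19. In muscle progenitor-like cells none of 34 and none of 15 passed. Epithelial or mesonephric-like cells had 4 higher and 3 lower of 29 other imprinted genes. Of the growth factor axis they had 4 higher and 1 lower of 16, with a median log2 fold of 0.47. Endothelial-like cells had none of 44 called, and 2 higher and 1 lower of 21.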

How the data were processed

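Single cells were sequenced with 10x Genomics 3' chemistry from 2 MMPlow and 2 MMPhigh libraries. The authors deposited raw counts, 1 UMI count per gene and barcode, made with Cell Ranger, version 7.0.1 per the file headers and 2.1.1 per the submitters' processing notes, which name mm10. Which version made the values could not be settled. These matrices are filtered to barcodes with at least 500 UMIs (962 in MMPlow 1), so a depth below that is not seen.

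Cells with at least 2000 UMIs, at least 1000 genes and a mitochondrial share under 25% were kept. Scrublet (scanpy 1.11.5, Python 3.11.15) marked 2, 996, 0 and 68 doublets, which were removed. It marked almost none in MMPlow 1 and MMPhigh 1 and did not work there, so doublets remain in these libraries. Cells were clustered by Leiden's method at resolution 1 on 2000 variable genes, 30 principal components and 15 neighbours, and clusters of at least 100 cells again at 0.5. Imprinted genes, mitochondrially encoded genes, nuclear genes of the respiratory chain and ATP synthase, and ribosomal protein genes were left out. None of these could be a leading gene of a cluster. A cluster was named from 12 markers per class. The second round and the naming thresholds were chosen after the first clusters were seen, and the members and gene lists with earlier results of these data known.

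UMIs were summed per library and class (at least 20 cells in every library, or 10 as an alternative) and tested with edgeR 4.0.16 in R 4.3.3, by its robust quasi-likelihood test with TMM normalisation, filterByExpr and Benjamini-Hochberg adjustment over all genes tested at 0.05. The standard error is the log2 fold divided by the root of F. The test between classes added class by gate terms and a block for the library. Shares used cells thinned to 2000 UMIs, a 95% exact binomial interval and, for 0, a limit of 3 counts. Likeness is Pearson's r over class means of log2(CPM + 10) for genes with a mean of at least 20 CPM. The test and its scripts were tested on simulated data. Named genes are the 10 members in every class, the 3 genes most like each, and in each pathway list up to 5 called genes with the largest folds in all cells. Alternatives were DESeq2 1.42.0, its size factors, no filter, other cell filters, doublet settings and resolutions, imprinted genes left in, a replicate block and leaving out each library. Another took the same number of cells of a class from every library. Added after seeing the data were cells with no endothelial marker UMI, classes without clusters that share at least 2 of 10 leading genes with neural clusters, and clusters with at least 5 cells in every library.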

Additional observations from a re-analysis of the deposited data

Results flagged for a closer look

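The difference between MMPhigh and MMPlow was itself different for 6 members between the 7 cell classes that held 20 or more cells in each library, by edgeR's quasi-likelihood test of the class and gate terms together. It was so for 16.4% of the 16437 genes tested. Ranges in parentheses leave out 1 library at a time, so that 1 gate holds a single library. The spread of that gate is then not measured, and the smallest p-values of these fits are no gauge of replication. The edgeR adjusted p was 1.31e-07 for Plagl1 (leaving out 1 library at a time, 1.29e-23 to 0.000356), whose called folds ran from -3.39 in macrophage-like to -0.63 in mesenchymal-like cells. It was 7.54e-05 for Igf2 (2.30e-87 to 0.0766), called lower in germ cell-like, erythroid-like, macrophage-like and megakaryocyte-like cells and not called in the other 3 classes. Mest had 0.000352 (4.87e-61 to 0.232), with a log2 fold of -5.14 in germ cell-like and 0.21 in mesenchymal-like cells. For Grb10, an edgeR adjusted p of 0.00249 (2.51e-28 to 0.296) went with -3.39 in germ cell-like and 0.39 in muscle progenitor-like cells. Igf2r had 0.00274 (0.000488 to 0.148), with folds below 0 in all 7 classes, from -2.63 in macrophage-like to -0.45 in muscle progenitor-like cells. H19 had 0.00332 (2.92e-74 to 0.438), from -3.94 in germ cell-like to 0.015 in muscle progenitor-like cells. Without MMPlow 1 or MMPlow 2 the count of members whose contrast differed fell to 2, with 1.81% and 4.64% of all genes differing, and without MMPhigh 1 it was 9, with 30.5%. With 2 libraries a gate, no group was large enough to look for a single library far from the rest.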

How the results depend on the processing

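Of the log2 folds of members recomputed under the alternatives, 1356 kept their direction and their side of the threshold, 100 lost a call, 126 gained one and 83 changed sign. Folds of the pathway genes were not recomputed. Of the class levels 179 stayed within 1 SD of the 4 libraries and 21 did not. This SD spans both gates, so where the gates differ it is wide and staying within it says little. Of the thinned shares 12 stayed within such an SD and 58 moved when cells were not thinned. Ranked by Spearman's rho, mostly other genes were most like each member. Where a value below moved, the cause was not tested. With DESeq2's size factors in edgeR, the log2 fold changed sign for Plagl1 (0.0020) in muscle progenitor-like cells and Dlk1 (0.024) in endothelial-like cells. By DESeq2's Wald test, 7 members were called in macrophage-like cells (14.8% of all genes), 5 in megakaryocyte-like cells (4.66% of all genes), 4 in endothelial-like cells (4.5% of all genes) and 2 in epithelial or mesonephric-like cells (4.87% of all genes), and the log2 fold changed sign for Plagl1 (0.0021) in muscle progenitor-like cells and Dlk1 (0.023) and Grb10 (0.00011) in endothelial-like cells. Without the filter on low counts, 6 members were called in megakaryocyte-like cells (8.64% of all genes), 2 in muscle progenitor-like cells (3.05% of all genes), 7 in neural or neural crest-like cells (9.49% of all genes), 4 in endothelial-like cells (2.66% of all genes) and 10 in the test between classes (15.4% of all genes), and the log2 fold changed sign for Plagl1 (0.045) in muscle progenitor-like cells. Among cells of at least 5000 UMIs, 7 members were called in macrophage-like cells (18.4% of all genes), 0 in megakaryocyte-like cells (0.24% of all genes) and 1 in endothelial-like cells (2.47% of all genes), and the log2 fold changed sign for Peg3 (-0.017) in all cells, Dlk1 (-0.048) in erythroid-like cells, Cdkn1c (-0.041) in megakaryocyte-like cells, H19 (-0.21) and Plagl1 (0.0077) in muscle progenitor-like cells and Cdkn1c (-0.047) and Grb10 (0.025) in endothelial-like cells. With cells of at least 1000 UMIs, 2 members were called in macrophage-like cells (16.5% of all genes) and 3 in mesenchymal-like cells (14.2% of all genes), and the log2 fold changed sign for Meg3 (0.0043) in macrophage-like cells, Plagl1 (0.011) in muscle progenitor-like cells and Dlk1 (0.052) in endothelial-like cells. With a mitochondrial share under 10%, the log2 fold changed sign for Peg3 (-0.0057) in megakaryocyte-like cells and Dlk1 (0.049) in endothelial-like cells. With the called doublets kept, the log2 fold changed sign for Peg3 (-0.060) in megakaryocyte-like cells. Without the 6% of cells with the highest doublet scores, the log2 fold changed sign for Dlk1 (-0.29) in erythroid-like cells, Plagl1 (0.019) in muscle progenitor-like cells and Dlk1 (0.0084) in endothelial-like cells. In cells with no UMI of the 12 endothelial markers, chosen after seeing the data, 1 member was called in macrophage-like cells (7.16% of all genes), 1 in megakaryocyte-like cells (5.24% of all genes), 3 in mesenchymal-like cells (7.87% of all genes) and 1 in neural or neural crest-like cells (0.261% of all genes), and the log2 fold changed sign for Meg3 (0.92) in macrophage-like cells, Peg3 (-0.16) and Grb10 (0.28) in megakaryocyte-like cells and H19 (-0.11) and Igf2 (0.27) in muscle progenitor-like cells. With the clusters that share leading genes with neural clusters removed, chosen after seeing the data, 9 members were called in macrophage-like cells (26.8% of all genes) and 7 in megakaryocyte-like cells (18% of all genes), and the log2 fold changed sign for Dlk1 (-0.66), Meg3 (-1.91), Peg3 (-1.27) and Cdkn1c (-1.12) in megakaryocyte-like cells. In clusters with at least 5 cells in every library, chosen after seeing the data, 7 members were called in macrophage-like cells (10% of all genes) and 5 in megakaryocyte-like cells (7.39% of all genes), and the log2 fold changed sign for Dlk1 (-0.16) and Cdkn1c (-0.22) in erythroid-like cells, Cdkn1c (-0.75) in macrophage-like cells, Dlk1 (-0.54), Meg3 (-1.34), Peg3 (-1.03) and Cdkn1c (-0.96) in megakaryocyte-like cells and H19 (-0.080) in muscle progenitor-like cells. At clustering resolution 0.5, 3 members were called in erythroid-like cells (6.83% of all genes), 2 in macrophage-like cells (20.3% of all genes), 6 in megakaryocyte-like cells (7.69% of all genes) and 1 in neural or neural crest-like cells (3.9% of all genes), and the log2 fold changed sign for Meg3 (0.38) in erythroid-like cells, H19 (-0.0075) in muscle progenitor-like cells, Dlk1 (0.21) in endothelial-like cells and Grb10 (0.21) and Plagl1 (-1.13) in epithelial or mesonephric-like cells. At resolution 2, 6 members were called in megakaryocyte-like cells (10.3% of all genes), 1 in mesenchymal-like cells (12.7% of all genes), 4 in muscle progenitor-like cells (10% of all genes) and 2 in neural or neural crest-like cells (8.96% of all genes), and the log2 fold changed sign for Peg3 (-0.025) and Cdkn1c (0.26) in germ cell-like cells and H19 (-0.67), Peg3 (-0.20) and Grb10 (-0.16) in muscle progenitor-like cells. With the imprinted genes left in the clustering, 0 members were called in germ cell-like cells (0.0111% of all genes), 2 in macrophage-like cells (18.7% of all genes) and 5 in megakaryocyte-like cells (6.73% of all genes), and the log2 fold changed sign for Meg3 (0.32) in erythroid-like cells, Peg3 (-0.039) and Cdkn1c (1.85) in germ cell-like cells, Dlk1 (0.12) and Meg3 (0.15) in macrophage-like cells, Plagl1 (0.0050) in muscle progenitor-like cells and Dlk1 (0.047) in endothelial-like cells. With the same number of cells of a class taken from every library, 5 members were called in the sums over classes (15.3% of all genes). The log2 fold of Grb10 (0.032) changed sign there.

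With 1 library left out, the lone library of its gate is assumed to vary like those of the other gate. The number of members called then ran, with the range of the share of all genes called in parentheses, from 3 to 5 in germ cell-like cells (3.36% to 12%), from 2 to 9 in macrophage-like cells (4.68% to 25.7%), from 2 to 8 in megakaryocyte-like cells (0.558% to 15.4%), from 2 to 9 in mesenchymal-like cells (9.56% to 23.2%), from 0 to 2 in muscle progenitor-like cells (0.294% to 8.78%), from 2 to 8 in neural or neural crest-like cells (3.16% to 18.9%), from 0 to 6 in endothelial-like cells (1.11% to 3.13%), from 3 to 7 in epithelial or mesonephric-like cells (6.71% to 15.6%) and from 2 to 9 in the test between classes (1.81% to 30.5%). The log2 fold changed sign in at least 1 of these fits for Dlk1 (from -0.48 to 0.38) and Meg3 (from -0.54 to 0.071) in erythroid-like cells, Peg3 (from -0.14 to 0.25) in germ cell-like cells and Dlk1 (from -0.89 to 0.16), Meg3 (from -0.84 to 0.31) and Cdkn1c (from -1.33 to 1.70) in macrophage-like cells. It did so too for Dlk1 (from -0.38 to 2.03), Meg3 (from -1.69 to 1.28), Peg3 (from -0.62 to 0.41) and Cdkn1c (from -0.23 to 0.72) in megakaryocyte-like cells, H19 (from -0.18 to 0.23), Igf2 (from -0.55 to 0.25) and Plagl1 (from -0.10 to 0.10) in muscle progenitor-like cells, Meg3 (from -0.61 to 0.84), Grb10 (from -0.17 to 0.032), Plagl1 (from -0.46 to 0.74) and Dlk1 (from -0.47 to 0.24) in endothelial-like cells and Peg3 (from -0.17 to 0.73) in epithelial or mesonephric-like cells.

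The number of all genes called, followed by its range over the alternatives, was 11016, from 2511 to 11887, in all cells; 1454, from 680 to 2178, in erythroid-like cells; 574, from 1 to 1064, in germ cell-like cells; 2769, from 669 to 3834, in macrophage-like cells. It was 763, from 25 to 2107, in megakaryocyte-like cells; 2570, from 914 to 3591, in mesenchymal-like cells; 224, from 2 to 1133, in muscle progenitor-like cells; 1437, from 32 to 2266, in neural or neural crest-like cells. It was 238, from 76 to 654, in endothelial-like cells; 1067, from 381 to 1554, in epithelial or mesonephric-like cells; 2696, from 316 to 5192, in the test between classes.

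The labels number the libraries 1 and 2 in each gate and name no shared embryo, litter or day. Deviations of same-numbered libraries from their gate means had a correlation of 0.0048 over 10040 genes. With 2 libraries a gate this is a single comparison and cannot settle whether same-numbered libraries share an embryo, litter or day. With the replicate number as a replicate block, 7 members were called in neural or neural crest-like cells (12.5% of all genes), and the log2 fold changed sign for Peg3 (-0.011) in megakaryocyte-like cells. 8 members were called in all cells with the block (54.1% of all genes).

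The germ cell-like class gave no value at resolution 0.5 or with at least 5000 UMIs, where too few of its cells remained in a library. In simulated counts 20% of the genes given a log2 fold of 1 and 75% of those given 2 were found among 5200 genes of that class, against 72% and 92% among 14263 genes of mesenchymal-like cells and 60% and 86% among 20146 genes of all cells.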
